A study of Bos taurus with 8 samples.

Results

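Type I interferons act through a receptor of 2 chains, encoded by IFNAR1 and IFNAR2, and through 2 kinases bound to those chains, encoded by TYK2 and JAK1. These 4 genes were taken by name from the single-cell RNA tables of cattle blood mononuclear cells, where they are 4 of 21861 listed genes, and by the same Ensembl identifiers from the single-cell ATAC tables. The identifiers are ENSBTAG00000021819 for IFNAR1, ENSBTAG00000015212 for IFNAR2, ENSBTAG00000011698 for TYK2 and ENSBTAG00000003147 for JAK1. Taking rows by name uses no measured value, but the members were chosen with earlier results of these data known.

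When interferon alpha, beta or a relative binds, IFNAR1 (held with TYK2) and IFNAR2 (held with JAK1) come together and the kinases phosphorylate STAT2, which with IRF9 enters the nucleus and switches on interferon-stimulated genes such as ISG15, a small ubiquitin-like protein. Nearly every nucleated cell carries the receptor, and monocytes, B cells, T cells and NK cells all respond through it. LPS, a cell wall component of Gram-negative bacteria, is sensed mainly by TLR4 with CD14 on monocytes, and interferon made after that sensing is known to act back on blood cells.

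Whole blood of 4 lactating Holstein cows aged 2 years was pooled and split into a part with no LPS and parts kept with LPS at 2 µg/ml during 2 h, 4 h or 8 h, and mononuclear cells were isolated afterwards. For each part there is a single scRNA-seq library and a single scATAC-seq library. With 1 library per treatment there was no replicate check and no test was possible, so every interval below is a 95% interval that covers counting error only. The pool hides differences between animals. The LPS time, the time of incubation and the library cannot be told apart, since the incubation of the part with no LPS is not given.

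Barcodes were required to show between 200 and 3000 genes, a minimum of 200 UMIs and a mitochondrial share below 20%, which left 7821, 9865, 7387 and 3411 cells in time order (no LPS first), with 16657841 to 47875879 UMIs per library. Classes were gated on raw UMIs of 4 marker genes, with at least 2 UMIs of CD14 or at least 1 of CD3E, MS4A1 or NCR1 and none of the other 3. The CD14 class held 707, 308, 117 and 66 cells in time order, the CD3E class 3482, 4937, 3857 and 1550, the MS4A1 class 1692, 2392, 1894 and 663, and the NCR1 class 58, 97, 90 and 38. The remaining 1094 to 2131 cells per library passed no gate. Summed, the markers not used in the gates were highest in their own classes. The 7 monocyte markers had 6979 to 12934 CPM in the CD14 class. The 6 T cell markers had 547 to 621 CPM in the CD3E class. The 6 B cell markers had 1043 to 1403 CPM in the MS4A1 class, and the 6 NK markers 1797 to 2422 CPM in the NCR1 class. S100A12 alone gave 5285 to 10920 CPM of the monocyte sum. Not every marker followed its class. With no LPS the NCR1 class exceeded the CD14 class in CST3 (361 against 202 CPM) and the CD3E class in LCK (281 against 196). BLK was then at 114 CPM in the CD3E class against 34.9 in the MS4A1 class. GZMB at 4 h was at 7.71 CPM in the NCR1 class against 15.0 in the CD3E class. The 3 granulocyte markers, CSF3R, CXCR2 and MMP9, summed to 82.3, 40.9, 105 and 37.7 CPM in the CD14 class in time order. The RNA libraries shared 8 to 24 barcodes per pair.

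UMIs were summed per class and library and given as CPM, that is scaled to a total of 1000000 UMIs of the same cells. A ratio is log2 of (CPM + 1) over (CPM + 1) with no LPS, its interval is that of the CPM ratio without the pseudocount, and a gene is called past 1.5-fold only with at least 20 UMIs over both sums. A higher CPM is a larger share of a cell's RNA, which more transcript and less of other RNA cannot be told apart from. Levels were compared between classes and times and not between genes, since the share of transcripts captured can differ from gene to gene. The tables count genes, so a membrane-bound and a soluble form of IFNAR2, known in other mammals, were counted together.

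The main pattern lay in the CD14 class. There IFNAR2 and TYK2 exceeded their level in untreated blood by 4 h (2.40-fold and 1.95-fold) and still did so by 8 h, while by 4 h IFNAR1 was at 0.908-fold and JAK1 at 1.1-fold of their level with no LPS. At 8 h the TYK2 change in the CD14 class did not differ from that in the MS4A1 class beyond counting error. Among all genes tested in the CD14 class, 12.3% at 4 h and 14.6% at 8 h were past 1.5-fold upwards. No member passed 1.5-fold at any time in the CD3E class, beside 4.47% to 7.4% of genes in either direction. None did in the MS4A1 class, beside 14.9% to 24.2%. Of the 1 or 2 members with enough UMIs in the NCR1 class none did, beside 25.6% to 26.9%. For so few members, none called is near these shares and is no result about the members. ISG15 reached 5344 CPM in the MS4A1 class and 1542 CPM in the CD3E class.

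**Figure D1:**
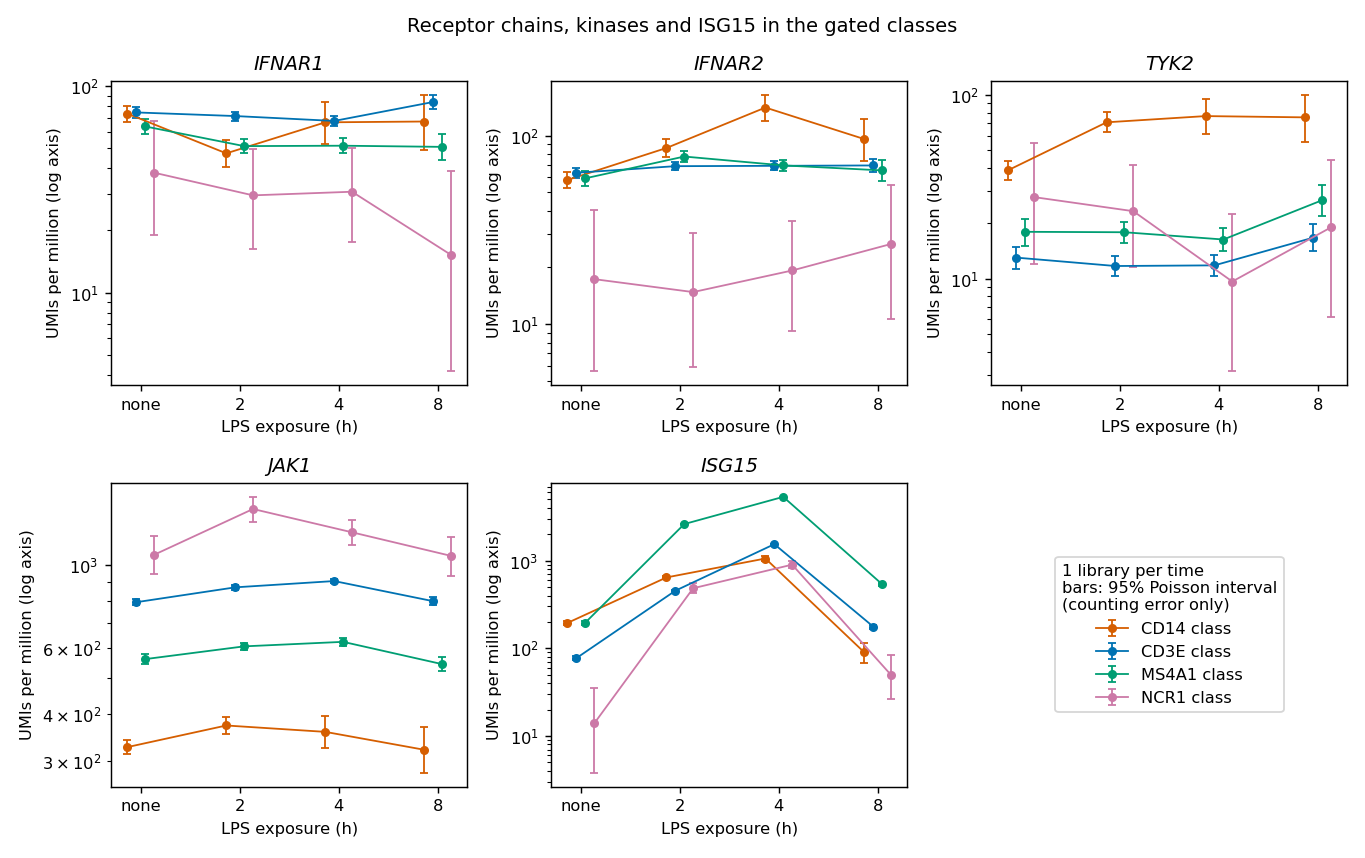
CPM (log axis) of IFNAR1, IFNAR2, TYK2, JAK1 and ISG15 against LPS time in the 4 gated classes, 1 library per point with its 95% Poisson interval. In the CD14 class IFNAR2 (141 CPM) and TYK2 (76.6 CPM) are highest at 4 h and above no LPS at each time, JAK1 keeps the order NCR1, CD3E, MS4A1, CD14 at every time, and ISG15 peaks at 4 h in each class.

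IFNAR1 encodes the chain that carries TYK2. Its level in the CD14 class was 73.8 CPM (interval 67.5 to 80.6) with no LPS, 47.3 CPM (40.5 to 55.1) at 2 h, 67.0 CPM (52.8 to 83.8) at 4 h and 67.6 CPM (48.9 to 91.0) at 8 h. Only the 2 h library was low, with an interval that did not overlap that of the cells with no LPS. The log2 ratio at 2 h was -0.63 (interval -0.90 to -0.39). At 2 h the median gene of the CD14 class lay at -0.56, so relative to that median IFNAR1 was at -0.07, and 55.4% of the genes tested had a higher ratio. With edgeR's TMM scaling the ratio was -0.16 and with DESeq2 size factors -0.06, so this call rests on scaling by total UMIs.

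In the MS4A1 class IFNAR1 stood at 64.0 CPM with no LPS and at 51.3, 51.6 and 50.9 CPM at 2 h, 4 h and 8 h. All 3 LPS libraries were below the library with no LPS, with log2 ratios of -0.31, -0.31 and -0.32, under 1.5-fold each time. The interval at 8 h was -0.57 to -0.09. Relative to the median gene of the class the ratios were -0.19, -0.22 and -0.34, and 68.0%, 67.6% and 82.2% of the genes tested had a higher ratio. The monocyte markers in the MS4A1 class were also highest with no LPS, at 357 CPM against 67.2, 62.2 and 180 CPM. Their part in the IFNAR1 ratios was not tested. In the CD3E class the levels were 74.8, 71.8, 68.0 and 84.0 CPM. The 8 h library was the highest of these, at a log2 ratio of 0.17 (0.03 to 0.31). The difference in log2 change between the CD3E and MS4A1 classes at 8 h was 0.50 (0.23 to 0.77). The NCR1 class had 4 to 16 UMIs of IFNAR1 per library, at 38.2, 29.6, 30.8 and 15.2 CPM with overlapping intervals, and at this depth no difference between its times was detectable.

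IFNAR2 encodes the chain with the larger part in ligand binding, which carries JAK1. Its CD14 class level was 58.2 CPM (52.6 to 64.3) with no LPS, 86.0 CPM (76.7 to 96.2) at 2 h, 141 CPM (120 to 165) at 4 h and 95.9 CPM (73.3 to 123) at 8 h. Each LPS library was above the library with no LPS with no overlap of the intervals, and the 4 h library was highest. The log2 ratios were 0.56 (0.34 to 0.78), 1.26 (1.00 to 1.54) and 0.71 (0.31 to 1.11), the first 1.47-fold and so just under the threshold. Relative to the median gene of the class the ratios were 1.11, 1.46 and 0.76, and 7.67%, 3.59% and 10.9% of the genes tested had a higher ratio.

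In the MS4A1 class IFNAR2 was at 59.4, 77.5, 69.5 and 65.4 CPM in time order, and was highest at 2 h, with a log2 ratio of 0.38 (0.22 to 0.55). In the CD3E class it lay between 63.6 and 69.5 CPM in the 4 libraries, and its log2 ratios of 0.11 to 0.13 had intervals that reached 0 or nearly so. The change in the CD14 class at 4 h was larger than that in the CD3E class by 1.15 (0.86 to 1.44) and than that in the MS4A1 class by 1.05 (0.74 to 1.36) on the log2 scale. The NCR1 class had 5 to 10 UMIs per library, at 17.3, 14.8, 19.3 and 26.6 CPM. The cells that passed no gate went from 58.5 CPM with no LPS to 81.2, 84.1 and 78.3 CPM, under 1.5-fold at each time.

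With no LPS the 3 larger classes held IFNAR2 at 58.2 to 63.6 CPM, and neighbours in that order did not differ beyond their counting intervals, with the NCR1 class below them. At 4 h the CD14 class stood above the MS4A1 class, and at 8 h above the CD3E class, with ratio intervals that left out 0. For IFNAR1 the CD3E class was highest in each of the 4 libraries, at 68.0 to 84.0 CPM, but its ratio to the next class had an interval that left out 0 only at 2 h.

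The number of IFNAR2 UMIs per IFNAR1 UMI does not depend on how a library is scaled, and it is read here only for its change with time. The CD14 class had 0.789 (0.689 to 0.902) with no LPS, 1.82 (1.5 to 2.2) at 2 h, 2.11 (1.59 to 2.80) at 4 h and 1.42 (0.945 to 2.15) at 8 h. In the MS4A1 class it was 0.928, 1.51, 1.35 and 1.29, and its log2 changes of 0.70, 0.54 and 0.47 all had intervals above 0. The CD3E class showed a smaller shift, from 0.850 to 0.959 at 2 h and 1.02 at 4 h, and was back at 0.827 at 8 h. The balance of UMIs between the receptor chains thus moved towards IFNAR2 in the CD14 and MS4A1 classes at each LPS time, and more in the CD14 class at 4 h. Cells that passed no gate showed this move too, at 0.918, 1.32, 1.68 and 1.35 in time order. Their log2 changes of 0.52, 0.87 and 0.55 all had intervals above 0.

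TYK2 encodes the kinase bound to IFNAR1, which also serves the IL-12 and IL-23 receptors. It was 38.8 CPM (34.2 to 43.8) in the CD14 class with no LPS, 70.9 CPM (62.4 to 80.2) at 2 h, 76.6 CPM (61.4 to 94.5) at 4 h and 75.4 CPM (55.6 to 100) at 8 h. The 3 LPS libraries lay close together and all above the library with no LPS. The log2 ratios were 0.85 (0.62 to 1.13), 0.97 (0.62 to 1.34) and 0.94 (0.49 to 1.41), or 1.41, 1.17 and 0.99 above the median gene.

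The CD14 class had the highest TYK2 level of the 4 classes in each library. Its ratio to the next class had an interval above 0 at 2 h, 4 h and 8 h, while with no LPS the NCR1 class, with 8 UMIs, did not differ from it beyond counting error. The MS4A1 class had 18.0, 17.9, 16.3 and 26.7 CPM and the CD3E class 13.0, 11.7, 11.8 and 16.7 CPM. In both the 8 h library was the highest, at log2 ratios of 0.55 (0.19 to 0.95) and 0.34 (0.04 to 0.68), neither past 1.5-fold. In log2, the change in the CD14 class exceeded that in the MS4A1 class by 0.88 (0.48 to 1.27) at 2 h. At 4 h it did so by 1.12 (0.65 to 1.59). At 8 h the difference was 0.39 (-0.19 to 0.96), which held 0, and that to the CD3E class was 0.60 (0.06 to 1.14). Cells that passed no gate were at 24.3 CPM with no LPS and 35.0 CPM at 8 h (log2 ratio 0.51, 0.19 to 0.86). In the NCR1 class 5 to 11 UMIs per library gave 27.7, 23.3, 9.64 and 19.0 CPM with overlapping intervals.

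JAK1 encodes the kinase bound to IFNAR2, which is shared with the interferon gamma, IL-6 and common gamma chain receptors. It had the most UMIs of the 4 genes, and the order of the classes was the same in all 4 libraries, NCR1 above CD3E above MS4A1 above CD14, with each neighbouring ratio's interval leaving out 0. The NCR1 class stood at 1061, 1405, 1218 and 1055 CPM and the CD3E class at 794, 870, 904 and 799 CPM. The MS4A1 class had 561, 606, 623 and 544 CPM and the CD14 class 327, 374, 359 and 322 CPM. The 2 h and 4 h libraries were thus above the other libraries in each class, and the log2 ratios ranged from -0.04 to 0.40, the highest in the NCR1 class at 2 h (0.21 to 0.60). In the CD14 class at 2 h JAK1 was at 0.19 and thus 0.75 above the median gene. With TMM scaling that ratio was 0.67 and with DESeq2 size factors 0.77, past 1.5-fold under both, so its place under the threshold rests on scaling by total UMIs.

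**Figure D2:**
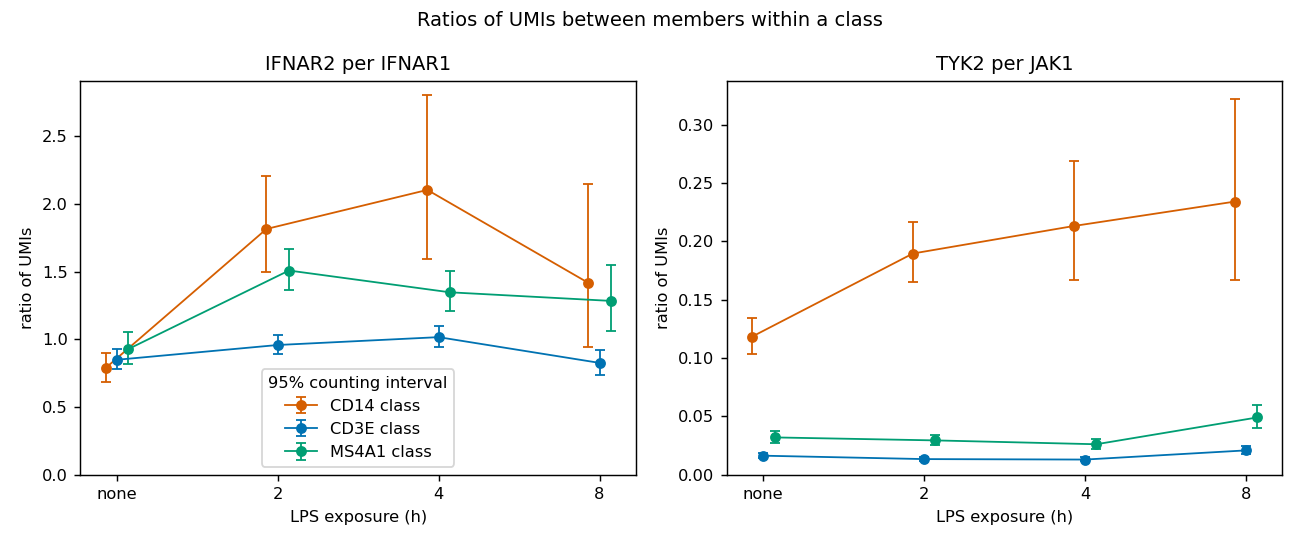
UMIs of IFNAR2 per UMI of IFNAR1 (left) and of TYK2 per UMI of JAK1 (right) against LPS time in 3 gated classes, with 95% counting intervals. In the CD14 class the first rises from 0.789 to 2.11 at 4 h and the second from 0.118 to 0.234 at 8 h, while the CD3E class stays at or below 1.02 and 0.0209.

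TYK2 UMIs per JAK1 UMI gave the same contrast between the kinases. The ratio in the CD14 class was 0.118 (0.104 to 0.135) with no LPS, 0.190 (0.165 to 0.217) at 2 h, 0.213 (0.167 to 0.269) at 4 h and 0.234 (0.167 to 0.322) at 8 h. In the CD3E and MS4A1 classes it was 0.0131 to 0.0491, lowest at 4 h and highest at 8 h in both.

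Counted over the members, 2 of 4 in the CD14 class were past 1.5-fold at each time. At 2 h these were TYK2 (higher) and IFNAR1 (lower), beside 55.1% of the 7769 genes tested, of which 7.38% were past it upwards and 47.7% downwards. At 4 h and 8 h they were IFNAR2 and TYK2, both higher, beside 39.6% and 33.3% of genes in either direction and 12.3% and 14.6% upwards. Counted in either direction, 2 of so few members is near the background at each time, so those counts are no result about them. The median log2 ratio of the 4 members was 0.37, 0.55 and 0.34, and that of all genes tested in the class -0.56, -0.20 and -0.05.

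In the CD3E class 0 of 4 were past it at each time, beside 4.47%, 7.4% and 6.51% of genes, and in the MS4A1 class 0 of 4, beside 19.9%, 24.2% and 14.9%. In the NCR1 class only 2, 2 and 1 members had the 20 UMIs needed, and none of those was past it, beside 25.6%, 26.7% and 26.9%. Over all kept cells 0 of 4 were past it, beside 9.47%, 13.8% and 11.5%. There IFNAR2 had 60.3, 74.4, 73.4 and 70.7 CPM and IFNAR1 69.7, 62.2, 59.5 and 69.0 CPM, while TYK2 had 21.1, 20.8, 17.9 and 25.2 CPM and JAK1 648, 751, 792 and 690.5 CPM. The CD14 class, the one with the most TYK2, fell from 9.04% of kept cells with no LPS to 1.58% at 4 h, and with each class held at its share of UMIs with no LPS the TYK2 ratio over all cells at 4 h changed from -0.23 to 0.37.

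**Figure D3:**
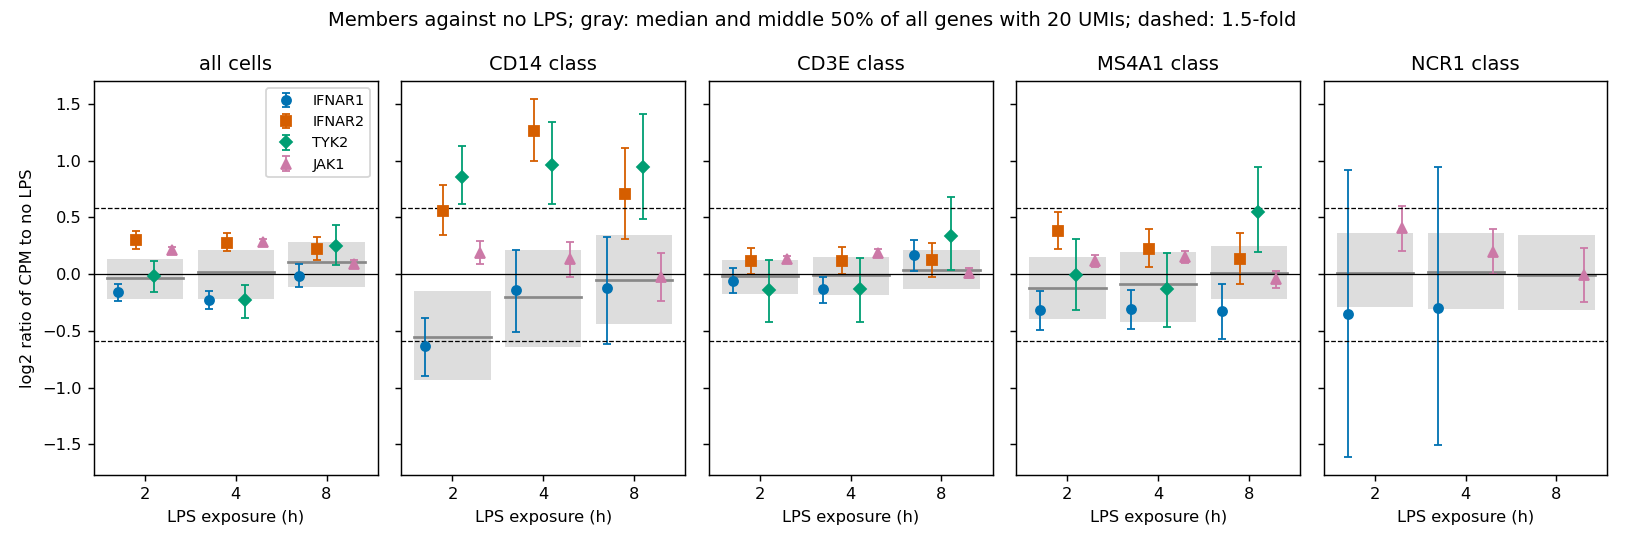
Log2 ratio of each member's CPM to no LPS over all cells and in the 4 gated classes, with 95% counting intervals, over the median (gray line) and middle 50% (gray box) of all genes tested, with 1.5-fold dashed. IFNAR2 and TYK2 lie above the gray box in the CD14 class at each time, and IFNAR1 at 2 h lies inside it; members with under 20 UMIs are left out of the NCR1 panel.

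Of the granulocyte markers in the CD14 class, CSF3R stood at 7.87, 29.7, 85.5 and 20.4 CPM in time order and CXCR2 at 0.297, 8.13, 10.6 and 6.29 CPM. Both were lowest with no LPS and highest at 4 h, as IFNAR2 was. MMP9 ran the other way, at 74.1 CPM with no LPS and 3.08, 8.81 and 11 CPM with LPS, so the sum of the 3 did not follow IFNAR2. Cells of that class with a UMI of CSF3R or CXCR2 were 5.66% of it with no LPS and 19.2%, 31.6% and 13.6% at 2 h, 4 h and 8 h, and they held IFNAR2 at 79.6, 112, 210 and 124 CPM. The remaining cells of the class held it at 57.0 CPM (51.3 to 63.2) with no LPS, 82.6 CPM (72.9 to 93.3) at 2 h, 121 CPM (99.3 to 146) at 4 h and 93.1 CPM (69.9 to 121) at 8 h. Without the cells that carried those markers the log2 ratios of IFNAR2 were 0.53, 1.07 and 0.70 and those of TYK2 0.78, 0.92 and 0.99. Among the 128, 39 and 31 cells that also had a UMI of CSF1R, the receptor of the monocyte growth factor, beside 411 with no LPS, IFNAR2 was at 0.48, 1.28 and 0.64 and TYK2 at 0.81, 0.83 and 1.14. Of the 3 dendritic cell markers listed, BATF3 was at 1071, 1303, 1418 and 1108 CPM in the CD14 class and FLT3 at 1.34 to 6.29 CPM. No gated class had a UMI of CLEC9A, so its 0 says nothing about the CD14 class. Whether that class held dendritic cells was not tested.

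The share of CD14 class cells with at least 1 UMI of TYK2 went from 26.2% (23.0 to 29.6) with no LPS to 50%, 39.3% and 45.5% at 2 h, 4 h and 8 h. For IFNAR2 it went from 33.0% (29.5 to 36.6) to 56.5%, 52.1% and 37.9%. Cells of this class held medians of 9665 to 12607.5 UMIs. Thinned to 1000 UMIs per cell, with 8 to 35 shallower cells left out per library, the TYK2 shares were 2.68%, 8.33%, 9.43% and 15.8% and the IFNAR2 shares 6.10%, 10.7%, 7.55% and 8.77%. After thinning the intervals of TYK2 at each LPS time lay above that with no LPS (1.6% to 4.2%), while those of IFNAR2 overlapped it at each time. No class here should lack these genes, so free RNA in the droplets gives no background to set beside the shares, and its part was not tested.

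The ligand genes named in the tables were 14 (IFNK, IFNE, IFNAG, 6 entries named IFNB3 and 5 of the tau family of ruminant pregnancy signals), and each had 0 UMIs in every library. The largest level that a count of 0 allows in the kept cells is 3 counts, or 0.0627 to 0.180 CPM. Ligand genes in cattle come as near-identical copies whose reads a counter can drop, and entries without a name were not looked at, so no level of interferon RNA follows from this.

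Among the other receptor chains, IFNGR1 and IFNGR2 form the interferon gamma receptor, and IL10RB pairs with IFNLR1 in the type III receptor. In the CD14 class 0 of the 3 that could be tested were past 1.5-fold upwards at any time, beside 7.38%, 12.3% and 14.6% of all genes tested. IFNGR2 was past it downwards at 2 h, from 20.2 to 10.9 CPM, where 47.7% of genes were, so that call is near the background. IL10RB lies between IFNAR1 and IFNAR2 in the gene order of the RefSeq assembly ARS-UCD2.0, with IFNGR2 on the other side of IFNAR1. IL10RB in the CD14 class was at 92.2, 114, 120 and 92.7 CPM, with log2 ratios of 0.30, 0.37 and 0.01, so of these 4 neighbours IFNAR2 had the largest ratio at each time. IFNLR1 was at most 3.33 CPM in the MS4A1 class, from 0.892 CPM with no LPS, and at most 1.57 CPM in the CD14 and CD3E classes.

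Of the other JAK kinases, JAK2 serves the interferon gamma receptor and JAK3 the common gamma chain. JAK2 in the CD14 class was 74.7 CPM with no LPS and 171, 117 and 95.9 CPM at 2 h, 4 h and 8 h, highest at 2 h with a log2 ratio of 1.18 (1.02 to 1.37). In the MS4A1 class it went from 31.1 to 54.0 CPM at 2 h (log2 ratio 0.78), and in the CD3E class it stayed at 27.1 to 31.6 CPM. JAK3 in the CD14 class had a log2 ratio of 0.68 at 8 h with an interval from -0.21 to 1.54.

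Below the receptor, STAT2 and IRF9 had smaller ratios at 4 h than most target genes. STAT2 was past 1.5-fold upwards at 4 h in all 4 classes (CD14, CD3E, MS4A1 and NCR1), beside 12.3%, 3.38%, 7.9% and 15% of genes, at 12.3 CPM from 7.43 in the CD14 class, where its interval reached below 0 as in the NCR1 class, and at 66.7 from 31.9 CPM in the MS4A1 class. IRF9 went from 36.7 to 87.2 CPM in the CD14 class at 4 h (log2 ratio 1.23, 0.90 to 1.59) and was back at 36.1 CPM at 8 h.

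Of the inhibitors of the pathway, 4 of 8 at 2 h, 3 of 7 tested at 4 h and 1 of 7 at 8 h were past 1.5-fold upwards in the CD14 class, beside 7.38%, 12.3% and 14.6% of genes, so the count at 8 h is near the background. At 2 h 2 of 8 were past it downwards, beside 47.7% of genes. Among those past it upwards, SOCS1 at 2 h (10 UMIs, interval -0.50 to 2.34) and USP18 at 8 h (8 UMIs, -0.04 to 2.41) had intervals that held 0. USP18, which sits on IFNAR2 and blocks its signalling, went from 5.20 CPM with no LPS to 16.5, 62.5 and 12.6 CPM in the CD14 class, highest at 4 h with a log2 ratio of 3.36 (2.99 to 4.22). It went from 47.0 to 134 CPM in the CD3E class and from 138 to 317 CPM in the MS4A1 class at 4 h. PTPN1, a phosphatase that acts on TYK2 and JAK2, went from 263 to 812 CPM at 2 h in the CD14 class and stood at 552 and 383 CPM at 4 h and 8 h. SOCS3, an inhibitor of cytokine receptor signalling, went from 16.8 to 35.9 CPM at 2 h. PTPN6, the phosphatase SHP-1, went from 76.6 to 31.9 CPM at 2 h in the CD14 class, where 47.7% of genes were past 1.5-fold downwards. It stood at 69.6 and 86.4 CPM there at 4 h and 8 h, so only the 2 h library was low. In the MS4A1 class it went from 151 to 81.6 CPM at 4 h.

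Genes of receptor turnover include BTRC and FBXW11, ubiquitin ligase parts that mark IFNAR1 for removal, PRKD2, a kinase in the same route, and RACK1, a scaffold. In the CD14 class 0, 0 and 1 of 4 were past 1.5-fold upwards (PRKD2 at 8 h, 7.86 from 4.01 CPM with an interval that held 0), beside 7.38%, 12.3% and 14.6% of genes. In the MS4A1 class PRKD2 was at 29.2 and 28.0 CPM at 4 h and 8 h from 50.2 CPM with no LPS. The list had 0 of 4 past it in either direction in the CD3E class at each time, beside 4.47%, 7.4% and 6.51% of genes.

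The interferon target genes were higher at 4 h, with 14 of 14 tested past 1.5-fold upwards in the CD14 class, 16 of 16 in the CD3E and MS4A1 classes and 10 of 11 in the NCR1 class, beside 12.3%, 3.38%, 7.9% and 15% of all genes tested. At 8 h the CD14 class had 1 of 9 past it upwards (IRF7) and 4 downwards (ISG15, MX2, RSAD2 and IFIH1), while the CD3E class had 7 of 15 upwards and the MS4A1 class 5 of 15, with 0 downwards. The shares of all genes tested at 8 h were 14.6% upwards and 18.7% downwards in the CD14 class, and 4.13% and 7.37% upwards in the CD3E and MS4A1 classes. At 2 h the CD14 class had 7 of 13 upwards and 2 downwards (RSAD2 and DHX58), beside 7.38% and 47.7% of all genes tested. The downward count is thus no result about the targets, and DHX58 was at -0.13 relative to the median gene. Of the 7, OAS1X had an interval that held 0 (-0.34 to 1.97). The listed target BST2 was not in the tables.

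**Figure D4:**
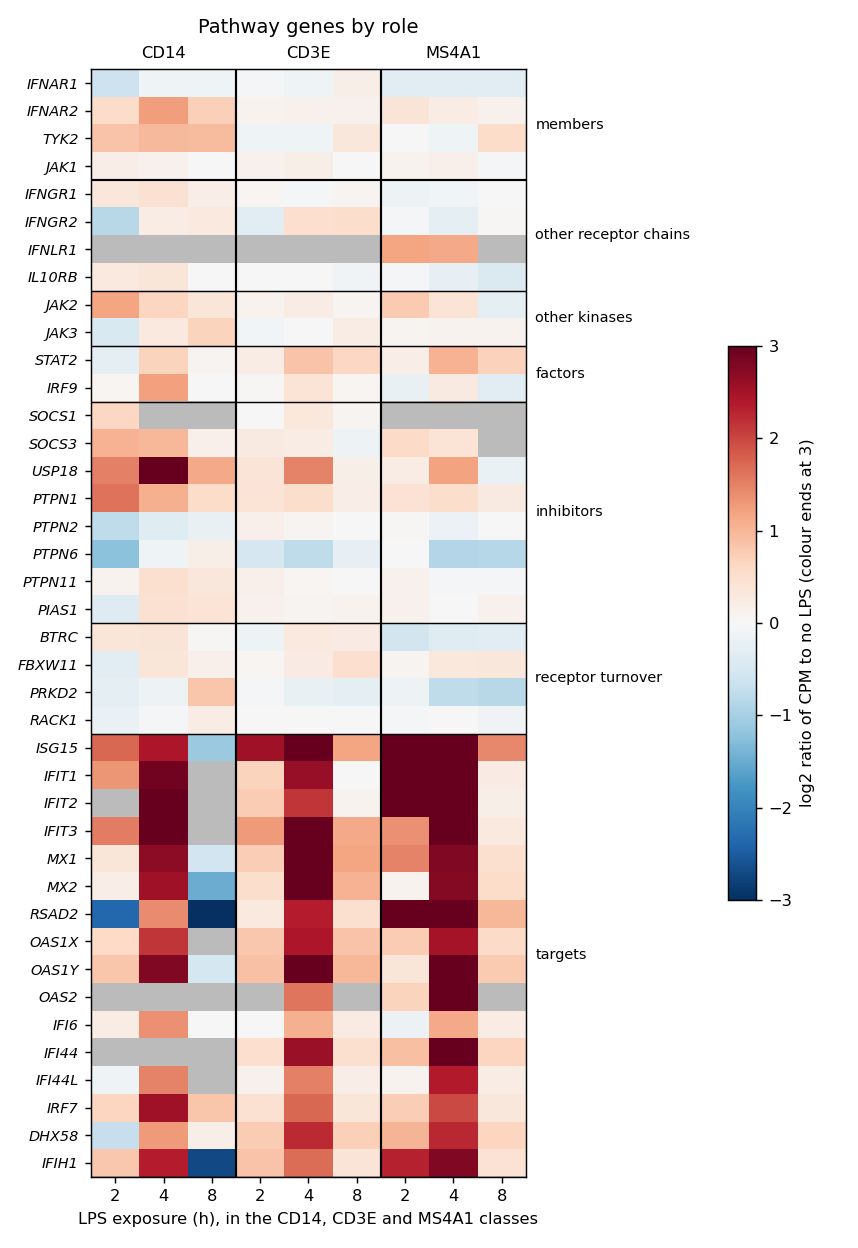
Log2 ratio of CPM to no LPS of the members and of the other pathway genes described here by role, in the CD14, CD3E and MS4A1 classes at 2 h, 4 h and 8 h of LPS; gray cells had under 20 UMIs over both sums. The tested target genes are red at 4 h in all 3 classes. Among the members, IFNAR2 (1.26) and TYK2 (0.97) in the CD14 class have the highest ratios at 4 h, below the median of 2.49 of the tested targets there.

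ISG15 stood at 195, 643, 1058 and 89.6 CPM in the CD14 class, at 77.2, 454, 1542 and 176 CPM in the CD3E class, at 196, 2614, 5344 and 537 CPM in the MS4A1 class and at 13.9, 484, 900 and 49.5 CPM in the NCR1 class. It was highest at 4 h in each class, and at 8 h it was below its level with no LPS in the CD14 class and above it in the other 3. The class with the most ISG15 at 2 h, 4 h and 8 h, MS4A1, had receptor levels at 4 h of 51.6 CPM (IFNAR1) and 69.5 CPM (IFNAR2), against 68.0 and 69.2 CPM in the CD3E class. At 8 h the CD14 class still held IFNAR2 at 95.9 CPM and TYK2 at 75.4 CPM with its ISG15 at 89.6 CPM. Over the 16 sums of class and library, which share libraries and differ in depth, log2(CPM + 1) of ISG15 had a Pearson's r of 0.17 with IFNAR1, 0.37 with IFNAR2, -0.14 with TYK2 and -0.13 with JAK1, and a Spearman's rho of -0.09, 0.44, -0.21 and -0.10.

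Over the same 16 sums, the gene whose log2(CPM + 1) was most like IFNAR1 among 9613 genes was CHPT1 (r 0.951), followed by DCTN6 and ENSBTAG00000007187. For IFNAR2 these were IFNGR2 (0.914), DGKD and RAB3IP, for TYK2 SCNN1D (0.959) and SPTSSA, and for JAK1 BOLA (0.978), JSP.1 and SPINT2. The sums share libraries and classes, so these r values describe likeness over them only.

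In the scATAC-seq files the values are counts of accessible DNA per gene and nucleus, and the counts of the members were summed over all barcodes of a library. Depth was very uneven, with 975012 counts over 3121 barcodes with no LPS (a median of 213 per barcode) and 30250143, 26837579 and 11957904 counts at 2 h, 4 h and 8 h. The libraries with no LPS and at 2 h shared 228 barcodes, against 10 to 31 in the other pairs. Of the gate markers, CD3E was listed in none of the 4 files and only MS4A1 in all of them, so the nuclei could not be gated as the cells were. Since 88.7% to 93.8% of the values were even, intervals were computed on the counts divided by 2.

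At IFNAR1 the level was 179 CPM (144 to 221) with no LPS and 214 CPM (206 to 221), 205 CPM (197 to 213) and 237 CPM (225 to 249) at 2 h, 4 h and 8 h. At IFNAR2 it was 77.9 CPM (55.2 to 107) and 96.4, 90.5 and 99.3 CPM. At TYK2 it was 74.9 CPM (52.6 to 103) and 91.0, 86.0 and 85.7 CPM. The interval with no LPS reached all 3 LPS values for IFNAR2 and TYK2, and the one for IFNAR1 reached those at 2 h and 4 h only.

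At JAK1 the level was 248 CPM (206 to 297) with no LPS, 356 CPM (347 to 366) at 2 h, 339 CPM (329 to 349) at 4 h and 293 CPM (279 to 307) at 8 h. No member was past 1.5-fold in any of the 6 comparisons, beside 31.3%, 28.3% and 23.8% of genes against no LPS and 4.68%, 16.8% and 13.4% for 4 h against 2 h, 8 h against 2 h and 8 h against 4 h. That count changed for IFNAR2 with only barcodes of at least 1000 counts, of which 83 were left with no LPS, where its log2 ratios to no LPS were 1.59, 1.5 and 1.64 at 2 h, 4 h and 8 h. Between the deeper libraries, JAK1 at 8 h was below 2 h by a log2 ratio of -0.28 (-0.36 to -0.20) and IFNAR1 above it at 0.15 (0.06 to 0.24). IFNAR2 and TYK2, at 0.04 and -0.08, had intervals that held 0. With each barcode and gene counted once, the JAK1 ratio of 8 h to 2 h was -0.01. For IFNAR2 and TYK2, whose RNA was higher in the CD14 class, the intervals of all 3 comparisons between LPS times held 0, in data that could not be split by class.

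**Figure D5:**
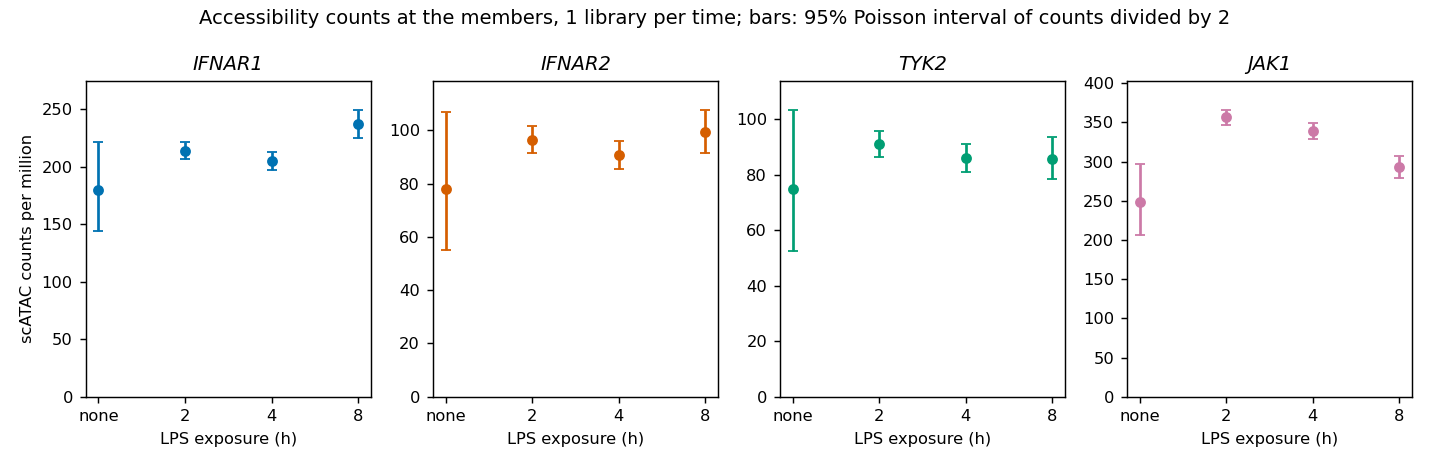
scATAC CPM at IFNAR1, IFNAR2, TYK2 and JAK1 in the libraries with no LPS and 2 h, 4 h and 8 h of LPS, with 95% Poisson intervals of the counts divided by 2. JAK1 falls from 356 CPM at 2 h to 293 CPM at 8 h, IFNAR2 and TYK2 stay within overlapping intervals at the 3 LPS times, and the shallow library with no LPS has the widest intervals.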

How the data were processed

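The scRNA-seq tables the authors deposited hold unnormalized UMI counts, 1 row a gene and 1 column a barcode, from Cell Ranger, and the scATAC-seq tables hold counts for genes by barcodes, whose counting rule and even values are not explained in the sources used here. The submitters' processing notes name ARS-UCD1.2 (bosTau9). No coordinates or sequences are given. The members and gene lists were chosen with earlier results of these data known.

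UMIs were summed per class and library in python 3.11.15 (numpy 2.4.6, scipy 1.17.1) and scaled to CPM. Levels had exact Poisson intervals, ratios exact conditional binomial intervals, shares exact binomial (Clopper-Pearson) intervals and floors 3 counts. Without molecular identifiers in scATAC-seq its intervals are too narrow if reads repeat. Doublets were handled only by the gate's exclusion of second markers and the limit of 3000 genes. Named genes were the members, ISG15, the pathway list by role, and the 3 genes most correlated with each member among those with at least 200 UMIs, of which 1 listed factor and 1 correlated gene are not reported here. TMM (edgeR 4.0.16) and DESeq2 1.42.0 factors were alternatives for scaling only. The ratio step was tested on simulated data. A planned gate of scATAC nuclei could not be applied.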

Additional observations from a re-analysis of the deposited data

Results flagged for a closer look

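With 1 library per group no sample could be compared with others of its group. A few results moved in opposite directions in gated classes under the same contrast, each with a counting interval that left out 0, and these differences between classes were not tested over replicates. IFNAR1 at 8 h of LPS against no LPS was higher in the CD3E class (log2 ratio 0.17) and lower in the MS4A1 class (-0.32). ISG15 at 8 h was lower in the CD14 class (-1.11) and higher in the CD3E class (1.18) and the MS4A1 class (1.45). The 8 h library had the fewest cells, and the CD14 class there held 66 of them with 57 UMIs of ISG15.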

How the results depend on the processing

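Of 720 alternative values, 645 stayed within the counting interval of the reported value, or within 1.5 times a count, and 0 of the ratios past 1.5-fold changed sign. Some of the 645 could not move. The gate of 1 UMI for all markers leaves the CD3E, MS4A1 and NCR1 classes unchanged, and the gate of 2 UMIs leaves the CD14 class unchanged. In the CD14 class IFNAR2 ranged over the alternatives from 1.03 to 1.45 (4 h) and 0.55 to 0.91 (8 h), and TYK2 from 0.74 to 1.42 at 2 h, 0.83 to 1.46 at 4 h and 0.84 to 1.14 at 8 h (log2 ratios to no LPS), so of these 5 ratios only IFNAR2 at 8 h came under 1.5-fold. No paired analysis was possible because each treatment has 1 library. Causes of the shifts below were not tested.

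With TMM scaling the CD14 class at 2 h gave IFNAR1 -0.16, IFNAR2 1.03, TYK2 1.33 and JAK1 0.67, and with DESeq2 size factors -0.060, 1.13, 1.42 and 0.77, so the calls at 2 h became IFNAR2, TYK2 and JAK1. Under TMM the other moved values were IFNAR1 -0.14 and IFNAR2 0.10 over all cells at 8 h, and JAK1 0.24, 0.26 and -0.035 over all cells at 2 h, 4 h and 8 h, 0.23 and 0.29 in the MS4A1 class at 2 h and 4 h and -0.040 in the CD3E class at 8 h. Under DESeq2 they were IFNAR1 -0.14 and IFNAR2 0.10 over all cells at 8 h, and JAK1 0.25 and -0.033 over all cells at 2 h and 8 h, 0.32 in the CD14 class at 4 h, 0.24 and 0.26 in the MS4A1 class at 2 h and 4 h and -0.038 in the CD3E class at 8 h. With cells weighted equally the CD14 class gave IFNAR2 0.97 and TYK2 1.27 at 2 h and TYK2 1.46 and JAK1 0.53 at 4 h, and JAK1 over all cells at 8 h was -0.033.

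With each class held at its share of UMIs with no LPS, TYK2 over all cells was 0.32, 0.37 and 0.62 (1 member past 1.5-fold at 8 h), IFNAR2 0.48 at 4 h and JAK1 0.14, 0.17 and -0.041. With no upper limit on genes JAK1 was 0.24 and -0.00066 over all cells at 2 h and 8 h and -0.15 in the MS4A1 class at 8 h, and 1 member of the CD14 class was past 1.5-fold at 2 h. The gate of 1 UMI for all markers gave JAK1 0.33 and 0.23 in the CD14 class at 4 h and 8 h. The gate of 2 UMIs left 7 cells of the NCR1 class with no LPS and gave JAK1 1.22, 1.00 and 0.65, IFNAR1 -1.58 at 4 h and 1 member past 1.5-fold at each time. A CD14 class of at least 10 UMIs of CD14, chosen after seeing the data like the CSF1R and CSF3R classes, had 1 member past it at 8 h.

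With only scATAC barcodes of at least 1000 counts, which leaves 83 with no LPS, IFNAR2 was at 1.59, 1.5 and 1.64 against no LPS. With each barcode and gene counted once JAK1 was at -0.041, -0.15 and -0.055 against no LPS, -0.015 for 8 h against 2 h and 0.10 for 8 h against 4 h. Leaving out the shared barcodes (chosen after seeing the data) moved no member beyond its interval.

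The share of kept cells with a UMI fell on thinning to 1000 UMIs, in time order, from 26.6%, 24.5%, 26.0% and 26.3% to 7.23%, 6.59%, 6.76% and 8.27% for IFNAR1, from 22.7%, 26.6%, 29.1% and 25.1% to 6.34%, 7.75%, 8.07% and 6.89% for IFNAR2, from 8.89%, 8.33%, 8.12% and 10.6% to 1.89%, 2.23%, 2.07% and 2.77% for TYK2, and from 86.8%, 90.8%, 92.5% and 82.2% to 49.3%, 54.6%, 55.7% and 48.2% for JAK1. The count of all genes past 1.5-fold moved most in the NCR1 class at 8 h, from 811 to 5365 with no minimum of UMIs and 29 with at least 200, and in the CD14 class at 8 h from 2486 to 4586 and 597.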
